A study of Homo sapiens with 10 samples.

Results

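The HOXB cluster was examined in RNA from SW480, an established human colorectal cancer cell line. Its members are the 10 genes HOXB1 to HOXB9 and HOXB13, taken by their symbol from 26485 genes listed in the count files. The cluster was chosen by its log2 fold changes between the ROBO1pos and ROBO1neg libraries, which were known when the members were set. All 10 were listed, and 9 had enough reads to enter the fit across 14932 genes. HOXB1 did not. Cells had been sorted by flow cytometry for the surface receptor ROBO1. The ROBO1pos population, called SW480-CBC in the labels, had 5 libraries, and the ROBO1neg population, called SW480-RSC, had 5. Both populations came from the same wild-type line grown in the same serum-containing medium, with no treatment in the labels. The labels do not say whether replicates came from separate cultures, so the spread between libraries may be technical.

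HOX genes encode transcription factors with a homeodomain, which binds DNA, and they set positional identity along the body axis of the embryo. In each HOX cluster the order of the genes on the chromosome follows the order in which they are expressed from head to tail, and the anterior genes respond to retinoic acid. In the gut, HOX genes help to pattern the segments of the tube, and adult intestinal epithelium keeps part of that code. HOX proteins bind DNA together with partners of the TALE class, which include the PBX and MEIS proteins.

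The cluster lies on chromosome 17, with its genes between positions 48528526 and 48728750 of GRCh38.p14, a span of 200.2 kb. All 10 genes lie on the minus strand, so that HOXB1 is at the end of the lowest coordinates and HOXB13 at the other. The span also holds antisense RNAs and the microRNA genes MIR10A and MIR196A1. By RefSeq positions MIR10A lies just beyond HOXB4 and within the span of HOXB3. MIR196A1 lies between HOXB9 and HOXB13. The mature microRNAs are shown because both are encoded inside the cluster and miR-196a is known from mouse embryos to direct cleavage of the Hoxb8 message. Capitals mark the seed, bases 2 to 8, and the sequences are from RefSeq (GRCh38.p14).
hsa-miR-10a-5p (chr17:48579904-48579926, minus strand): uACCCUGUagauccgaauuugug
hsa-miR-196a-5p (chr17:48632532-48632553, minus strand): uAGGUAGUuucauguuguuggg
HOXB8 site for miR-196a (chr17:48612770-48612791, minus strand, GRCh38, GENCODE 29): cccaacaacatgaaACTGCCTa
The seeds of both microRNAs differ. The HOXB8 site lies in the 3′ untranslated region, and the capitals in it are the bases opposite the seed. Without gaps, 21 of the 22 bases of miR-196a-5p could form Watson-Crick pairs with it and 1 a G:U pair, which falls within the seed. The best ungapped match of miR-196a-5p in the same region of the other members held at most 12 Watson-Crick pairs. These libraries hold polyadenylated RNA and do not measure mature microRNAs.

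A pair of start regions is also shown, each from 250 bases before to 50 bases after a start site listed for the gene (RefSeq, GRCh38.p14). HOXB1 is shown because it had next to no reads, and HOXB-AS3 because it drew the most reads of the antisense RNAs. The HOXB1 window is the only window of a member in the table used.
HOXB1 start region (chr17:48530962-48531261, minus strand): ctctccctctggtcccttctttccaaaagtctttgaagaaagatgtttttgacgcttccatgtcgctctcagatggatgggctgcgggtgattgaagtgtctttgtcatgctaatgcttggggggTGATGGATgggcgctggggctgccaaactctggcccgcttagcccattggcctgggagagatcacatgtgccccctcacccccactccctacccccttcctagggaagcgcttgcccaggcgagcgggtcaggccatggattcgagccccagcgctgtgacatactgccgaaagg
HOXB-AS3 start region (chr17:48595708-48596007, plus strand): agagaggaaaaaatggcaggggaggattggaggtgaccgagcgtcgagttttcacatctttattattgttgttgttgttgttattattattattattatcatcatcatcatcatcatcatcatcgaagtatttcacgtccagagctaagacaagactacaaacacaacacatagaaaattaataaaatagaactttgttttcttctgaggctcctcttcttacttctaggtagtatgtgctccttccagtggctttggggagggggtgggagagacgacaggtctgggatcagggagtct
Capitals mark matches on either strand to the HOX-PBX motif TGATNNAT, the CDX motif TTTATG or the retinoid receptor motif AGGTCA. HOXB1 had 1 match, to the HOX-PBX motif, and HOXB-AS3 had 0 matches. Over all 35116 windows of 300 bases in the table, 7.40% held the HOX-PBX motif, 10.6% the CDX motif and 13.8% the retinoid receptor motif. The HOXB-AS3 window lies inside the HOXB-AS3 gene, downstream of its outermost annotated start, and partly overlaps the span of HOXB6.

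Reads counted on genes ran from 23228686 to 29539100 per library. ROBO1, used for the sort, checked the labels: it was at 429.5 ± 26.7 CPM (reads of a gene relative to the TMM-scaled library total) in ROBO1pos and 7.25 ± 1.47 CPM in ROBO1neg (SD, n = 5 each). Of 10 epithelial and colorectal markers 9 were tested, 3 were higher in ROBO1pos, 5 lower and CDX2 did not pass, while KRT20 was listed at 0 in every library. Higher in ROBO1pos were EPCAM, at 680 ± 22.9 CPM in ROBO1pos and 302.5 ± 12.8 CPM in ROBO1neg, VIL1, at 503 ± 23.3 CPM in ROBO1pos and 27.7 ± 3.14 CPM in ROBO1neg, and CDH17, at 6.94 ± 3.38 CPM in ROBO1pos and 0.127 ± 0.0813 CPM in ROBO1neg (SD, n = 5 each). The keratins KRT8, KRT18 and KRT19 were lower in ROBO1pos, with log2 fold changes of -0.79, -0.81 and -0.82. Of 16 markers of immune, stromal and endothelial cells, 7 reached 1 CPM in no library, COL3A1 was at 0 throughout and PTPRC was at most 0.123 CPM. The 16 summed to between 24.5 and 29.98 CPM in ROBO1pos and between 39.2 and 50.3 CPM in ROBO1neg, with ACTA2 and COL1A1 the largest contributors. Of the 8 tested, 4 were lower in ROBO1pos, among them VWF (-2.82), COL1A1 (-1.56) and ACTA2 (-0.76 on the log2 scale), and 3 were higher, among them LUM (6.67) and COL1A2 (2.52). LUM was at 3.73 ± 1.79 CPM in ROBO1pos and 0.0309 ± 0.0428 CPM in ROBO1neg (SD, n = 5 each). The part of these markers in the HOXB levels was not tested. Reads on no annotated feature averaged 15.8% of those listed in ROBO1pos and 14.6% in ROBO1neg, and reads without a unique position 24.6% and 21.2%. Each share differed with p = 0.00794 (exact two-sided permutation test, the smallest p that 5 against 5 libraries can give), and their part was not tested either. Between the populations 82.0% of tested genes passed the test (edgeR quasi-likelihood, Benjamini-Hochberg adjusted p under 0.05), 40.4% as lower in ROBO1pos and 41.6% as higher.

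All 9 measured HOXB genes were lower in ROBO1pos than in ROBO1neg, by factors from 2.05 for HOXB13 to 42.5 for HOXB2. In each of the 9, every ROBO1pos library lay below every ROBO1neg library, a pattern seen in 35.7% of all tested genes, while the reverse held for 36.1%. The members' differences are given as a description without p-values, because the cluster was chosen with this contrast known. Their median log2 fold change was -2.46, against 0.019 over all tested genes. Reads on the 10 genes summed to 229.7 ± 8.15 CPM in ROBO1pos and 1261 ± 154 CPM in ROBO1neg (SD, n = 5 each), a ratio of 5.49 of ROBO1neg over ROBO1pos. In bulk RNA, fewer cells that express a gene and less of its RNA per cell cannot be told apart.

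**Figure D1:**
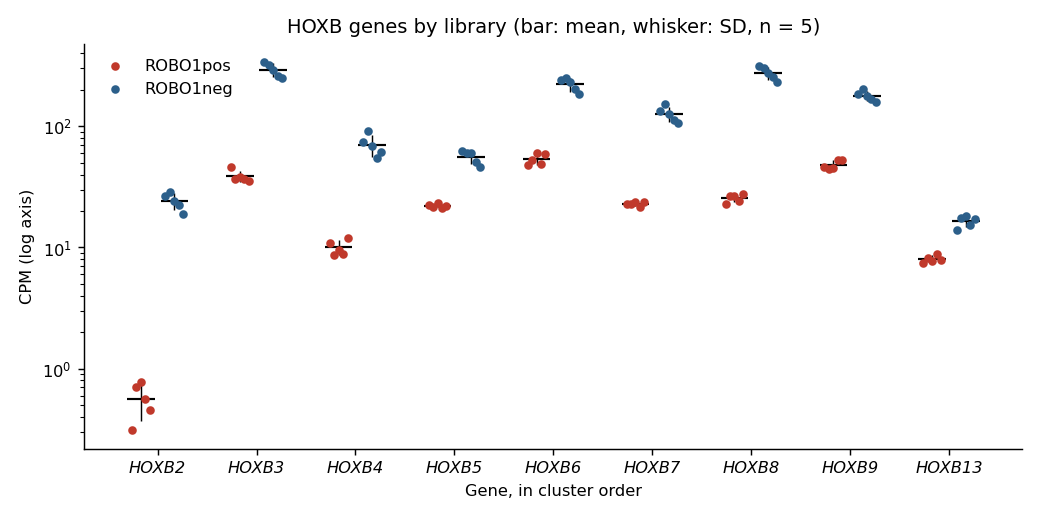
CPM of each HOXB gene with reads in the fit, in cluster order on the x axis and on a log y axis, with 1 point per library, a bar at the mean and a whisker of 1 SD (n = 5 per group). For all 9 genes the ROBO1pos points sit below the ROBO1neg points, with the widest gap at HOXB2 and the narrowest at HOXB13.

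HOXB1, which gives identity to a segment of the hindbrain, had next to no reads. There was 1 read over the 5 ROBO1pos libraries and 0 reads over the 5 ROBO1neg libraries. At this depth 3 counts over a group correspond to 0.0236 CPM in ROBO1pos and 0.0235 CPM in ROBO1neg. The upper ends of the exact 95% Poisson intervals were 0.0439 CPM in ROBO1pos and 0.0289 CPM in ROBO1neg. With so few reads HOXB1 did not enter the fit and was left out of every fold change.

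HOXB2, its neighbour and in mouse hindbrain a direct target of Hoxb1, had 0.310, 0.704, 0.775, 0.566 and 0.452 CPM in ROBO1pos. In ROBO1neg it had 26.8, 28.8, 24.2, 22.4 and 18.8 CPM. The log2 fold change was -5.41 (SE 0.18), the steepest of the cluster. The ROBO1pos levels rested on 72 reads over the 5 libraries, against 3032 in ROBO1neg, so HOXB2 is the member whose low level is least precise, with a coefficient of variation of 33.5%.

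HOXB3 and HOXB4 belong with HOXB2 to the anterior part of the cluster, and HOXB4 is best known for expanding blood stem cells in culture. HOXB3 had 46.2, 36.9, 38.0, 36.8 and 35.6 CPM in ROBO1pos, and 337, 323, 291, 259.8 and 248 CPM in ROBO1neg. HOXB4 had 10.99, 8.71, 9.61, 8.85 and 12.0 CPM in ROBO1pos, and 74.6, 91.5, 68.1, 54.7 and 61.0 CPM in ROBO1neg. Their log2 fold changes were close to each other, at -2.91 (SE 0.10) and -2.80 (SE 0.14). HOXB4 lies within the span of HOXB3 on the same strand, and 3.22% of its exon bases in GENCODE 29 are also HOXB3 exon. On the same strand 12.8% of them are also exon of the gene AC103702.1 and 2.93% are also MIR10A. Reads in such stretches could be counted to either gene or to none.

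HOXB5, known as a regulator of enteric nerve precursors, differed least among the genes between HOXB2 and HOXB9. It had 22.2, 21.7, 23.3, 21.4 and 22.1 CPM in ROBO1pos, and 62.45, 60.3, 60.0, 50.6 and 46.0 CPM in ROBO1neg, which is -1.33 on the log2 scale (SE 0.08). HOXB6, a gene of the limb bud and of blood cell development, had 47.5, 52.4, 59.8, 49.0 and 58.9 CPM in ROBO1pos, and 240.3, 251, 231, 202 and 183 CPM in ROBO1neg. Its log2 fold change was -2.05 (SE 0.09). HOXB6 shares 14.4% of its exon bases with the antisense RNA HOXB-AS3 in GENCODE 29, and whether counting used the strand is not stated for these files, so reads there cannot be told apart.

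HOXB7, which in breast cancer cells has been linked to a mesenchymal switch, had 22.8, 23.05, 23.6, 21.5 and 23.7 CPM in ROBO1pos, and 133.5, 151, 126, 113 and 107 CPM in ROBO1neg. The log2 fold change was -2.46 (SE 0.09). HOXB8, a gene used to hold mouse myeloid progenitors in an immature state, had 22.8, 26.7, 26.6, 24.1 and 27.7 CPM in ROBO1pos, and 314, 302, 277, 255 and 231 CPM in ROBO1neg. At a log2 fold change of -3.43 (SE 0.09) it was the second steepest member, 10.8-fold lower in ROBO1pos. For both genes the highest ROBO1pos library stayed far below the lowest ROBO1neg library.

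HOXB9, which patterns the thoracic skeleton in the mouse, had 46.2, 44.1, 45.6, 52.4 and 53.0 CPM in ROBO1pos, and 186, 204, 177, 169 and 160 CPM in ROBO1neg. The log2 fold change was -1.89 (SE 0.07). HOXB13, the posterior gene that marks prostate and distal large bowel, had 7.39, 8.27, 7.71, 8.89 and 7.85 CPM in ROBO1pos, and 13.9, 17.4, 18.1, 15.4 and 17.3 CPM in ROBO1neg. At -1.03 on the log2 scale (SE 0.09) it was the least different member, and it lies apart from the others at the far end of the cluster. Read in chromosomal order, the differences did not change steadily. They shrank toward HOXB5, grew again toward HOXB8 and shrank toward HOXB13.

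**Figure D2:**
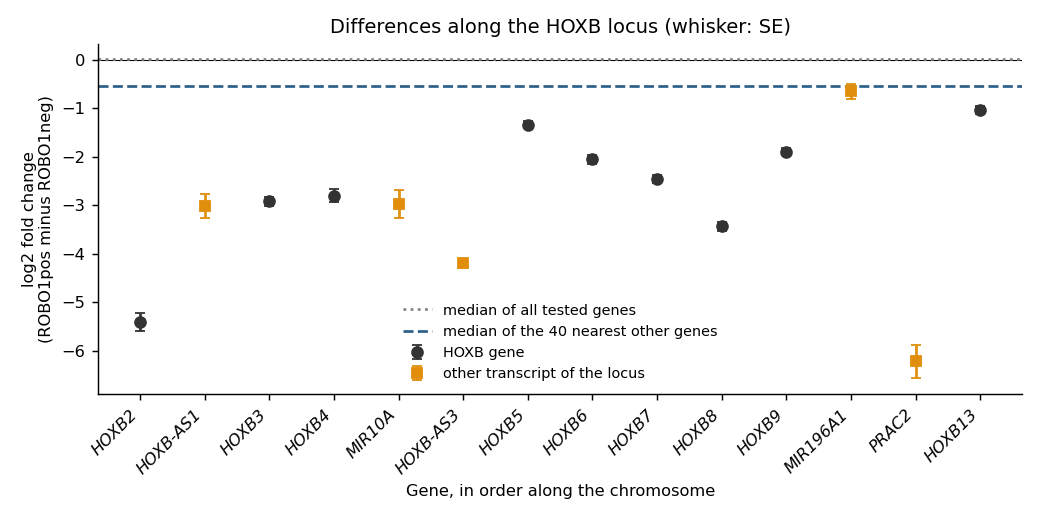
Log2 fold change, ROBO1pos minus ROBO1neg, of the HOXB genes (circles) and other transcripts of the locus (squares) in chromosomal order, with whiskers of 1 SE. The dotted line is the median of all tested genes (0.019) and the dashed line the median of the 40 nearest genes outside the locus (-0.54), and every point lies below both.

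Other transcripts of the locus were lower in ROBO1pos too, but some share exon bases with HOXB genes. Of 10 names searched, 6 were listed and 5 entered the fit, and all 5 passed the test as lower in ROBO1pos, where 40.4% of all tested genes did. HOXB-AS3, an antisense RNA that runs from between HOXB3 and HOXB5 to beyond HOXB6, had 5.53, 4.67, 4.92, 4.81 and 4.56 CPM in ROBO1pos, and 96.6, 106, 84.5, 80.6 and 80.6 CPM in ROBO1neg. Its log2 fold change was -4.19 (SE 0.09, edgeR adjusted p = 1.2e-13), a larger difference than those of HOXB5 and HOXB6, whose spans it covers. HOXB-AS1, which overlaps exons of HOXB2 and HOXB3, was at 0.283 ± 0.141 CPM in ROBO1pos and 2.31 ± 0.151 CPM in ROBO1neg (SD, n = 5 each), which is -3.01 on the log2 scale (SE 0.24, edgeR adjusted p = 3.8e-08).

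PRAC2, a small gene beside HOXB13 known from prostate and large bowel, had a larger fold change than any HOXB gene. It had 7 reads over the 5 ROBO1pos libraries and 562 over the 5 ROBO1neg libraries, with 0.0532 ± 0.0621 CPM in ROBO1pos and 4.43 ± 0.657 CPM in ROBO1neg (SD, n = 5 each). Its log2 fold change was -6.22 (SE 0.35, edgeR adjusted p = 7.3e-10) while HOXB13 beside it had the smallest difference of the members. PRAC1, which lies within the span of PRAC2 on the opposite strand, was not tested. It was at most 0.0808 CPM in ROBO1pos and 0.0721 CPM in ROBO1neg.

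Reads were also listed for both microRNA genes, which in such libraries stem from longer transcripts over the hairpin. MIR10A was at 0.254 ± 0.133 CPM in ROBO1pos and 2.02 ± 0.441 CPM in ROBO1neg (SD, n = 5 each), which is -2.97 on the log2 scale (SE 0.29, edgeR adjusted p = 2.6e-07), close to HOXB4, whose exons in GENCODE 29 include the hairpin. MIR196A1 was at 1.38 ± 0.177 CPM in ROBO1pos and 2.17 ± 0.363 CPM in ROBO1neg (SD, n = 5 each), which is -0.65 on the log2 scale (SE 0.16, edgeR adjusted p = 0.0018). It thus had a smaller difference than HOXB9 before it in the cluster and HOXB8, the gene that holds its matching site.

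Within ROBO1neg most members were lowest in the same library. Replicate 5 held the lowest CPM for 7 of the 9 members, replicate 2 the highest for 5 and replicate 1 the highest for 3. How often these libraries were lowest or highest over all tested genes was not counted, so whether this is particular to the cluster was not tested. The exceptions were HOXB4, lowest in replicate 4, and HOXB13, lowest in replicate 1. Summed HOXB levels in ROBO1neg were 1388, 1429, 1273, 1142 and 1072 CPM for replicates 1 to 5. In ROBO1pos they were 226, 222.5, 235, 223 and 241 CPM, and no replicate held the highest level for more than 4 members or the lowest for more than 4. The coefficient of variation of HOXB3 to HOXB13 ran from 3.33% to 20.2%, so that each group difference was far larger than the spread within a group.

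**Figure D3:**
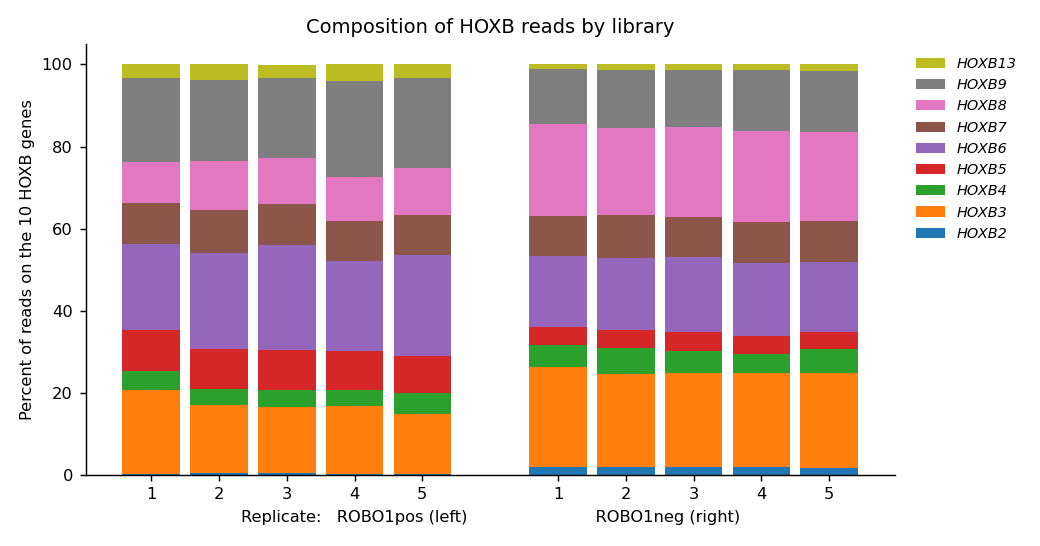
Percent of the reads on the 10 HOXB genes that fell on each gene, 1 stacked bar per library, ROBO1pos on the left and ROBO1neg on the right. HOXB8 takes 11.1% ± 0.74 of the reads in ROBO1pos and 21.9% ± 0.60 in ROBO1neg (SD, n = 5 each), and HOXB1, with 1 read, is not visible.

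The mixture of HOXB messages differed as well as their amount. HOXB5 made up 9.64% ± 0.31 of HOXB reads in ROBO1pos and 4.43% ± 0.19 in ROBO1neg, HOXB6 made up 23.3% ± 1.8 and 17.6% ± 0.40, and HOXB9 made up 21.0% ± 1.7 and 14.3% ± 0.63 (SD, n = 5 each). HOXB3 took 16.9% ± 2.1 in ROBO1pos and 23.1% ± 0.67 in ROBO1neg, and HOXB8 took a larger share in ROBO1neg too. HOXB7 took nearly the same share, at 9.98% ± 0.28 in ROBO1pos and 9.99% ± 0.36 in ROBO1neg. HOXB2 was 0.245% ± 0.083 of HOXB reads in ROBO1pos and 1.91% ± 0.098 in ROBO1neg, and HOXB13 was 3.50% ± 0.33 and 1.32% ± 0.23.

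Levels can be compared between genes only per length, here as CPM per kilobase of exon in GENCODE 29, which may not be the annotation the authors counted on. On that scale HOXB6 was the leading member in ROBO1pos, at 27.3 ± 2.87 CPM per kb, followed by HOXB9 at 18.7 ± 1.61, HOXB7 at 16.7 ± 0.652 and HOXB8 at 14.04 ± 1.12 (SD, n = 5). The order ran on through HOXB5 at 10.8 ± 0.361, HOXB3 at 6.17 ± 0.686, HOXB4 at 2.67 ± 0.383, HOXB13 at 2.31 ± 0.167 and HOXB2 at 0.359 ± 0.120. HOXB9 and HOXB7 overlapped in range, as did HOXB4 and HOXB13, and the other neighbours in that order did not.

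In ROBO1neg HOXB8 led instead, at 151 ± 18.5 CPM per kb, followed by HOXB6 at 113 ± 14.4, HOXB7 at 92.0 ± 12.8 and HOXB9 at 69.5 ± 6.54 (SD, n = 5). HOXB3 came next at 46.5 ± 6.12, then HOXB5 at 27.4 ± 3.51, HOXB4 at 18.6 ± 3.77, HOXB2 at 15.5 ± 2.49 and HOXB13 at 4.74 ± 0.506. The ranges of the first 4 overlapped from each to the next, though all 5 libraries kept that order. HOXB5 and HOXB4 overlapped as well, as did HOXB4 and HOXB2, again with the same order in all 5 libraries. HOXB6 stayed first in ROBO1pos and HOXB8 first in ROBO1neg when coding length was used in place of exon length, an alternative chosen after seeing the data. HOXB9 and HOXB7 then changed places in ROBO1neg, at 239 and 194 CPM per kb of coding length, as did HOXB4 and HOXB5.

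The genes on either side of the cluster give its local background. Within 1000 kb of its ends 32 other genes were tested, of which 24 were lower in ROBO1pos, 5 higher and 3 did not pass, and their median difference on the log2 scale was -0.60. Among all tested genes 40.4% were called lower and 41.6% higher. Nearest on the HOXB1 side were LOC101927166, at 0.117 ± 0.0533 CPM in ROBO1pos and 2.66 ± 0.725 CPM in ROBO1neg, and SKAP1, an adaptor protein of T cell signalling, at 9.94 ± 1.15 CPM in ROBO1pos and 101 ± 18.1 CPM in ROBO1neg (SD, n = 5 each). Their log2 fold changes were -4.45 (SE 0.32, edgeR adjusted p = 9.8e-09) and -3.35 (SE 0.12, edgeR adjusted p = 8.9e-12), within the range of the HOXB genes. SNX11 and CBX1, farther out on that side, were at -0.52 (SE 0.06) and -0.65 (SE 0.04).

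On the HOXB13 side, 3 of the 4 nearest called neighbours were lower in ROBO1pos and 1 was higher. TTLL6, a tubulin-modifying enzyme, had a log2 fold change of -0.80 (SE 0.29, edgeR adjusted p = 0.021), which rested in part on ROBO1neg replicate 5: without it the value was -0.56 (edgeR adjusted p = 0.074). CALCOCO2, an autophagy receptor, was at -1.12 (SE 0.06) and UBE2Z, a ubiquitin-conjugating enzyme, at -0.79 (SE 0.04). ATP5G1, a subunit of the ATP synthase, was higher in ROBO1pos, at 0.21 (SE 0.06, edgeR adjusted p = 0.0053). The 20 nearest tested genes on each side, 40 in all, had a median of -0.54, with 27 lower in ROBO1pos, 8 higher and 5 not passing. Calls over all tested genes were 40.4% lower and 41.6% higher. Within 1000 kb, 7 flanking genes had log2 fold changes inside the range of the HOXB genes. Beside LOC101927166, SKAP1 and CALCOCO2 these were COPZ2 at -3.77 (SE 0.16), LRRC46 at -1.50 (SE 0.24) and SCRN2 at -1.19 (SE 0.06) on the HOXB1 side and NGFR, a neurotrophin receptor, at -3.40 (SE 0.11) on the HOXB13 side. With the median of the 40 removed, the members' log2 fold changes ran from -4.87 for HOXB2 to -0.49 for HOXB13, with a median of -1.92.

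**Figure D4:**
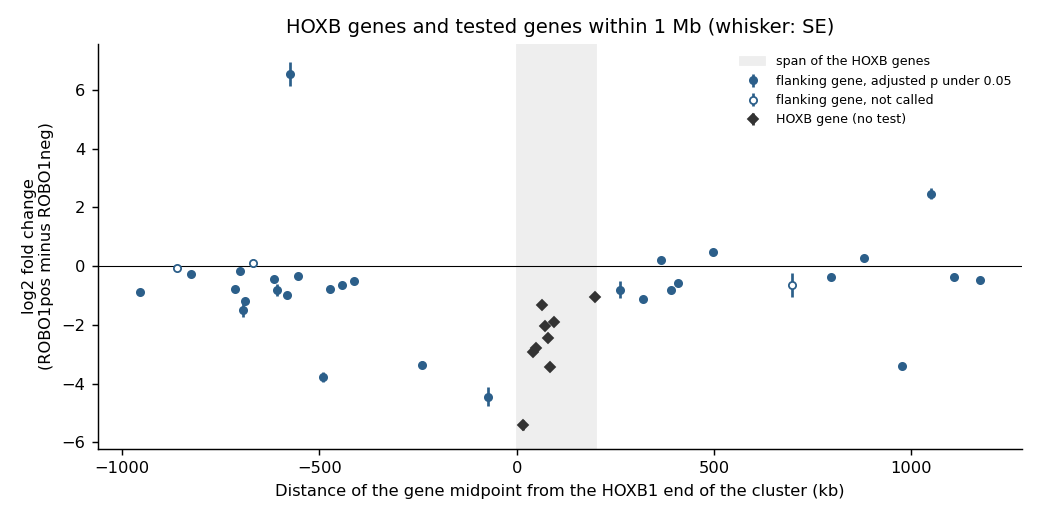
Log2 fold change, ROBO1pos minus ROBO1neg, of the HOXB genes (diamonds) and of 32 tested genes within 1000 kb (circles, open where not called), against distance in kb from the HOXB1 end of the cluster, with whiskers of 1 SE. Most flanking genes lie between 0 and the HOXB genes, and 7 lie among the HOXB values, 5 on the HOXB1 side and 2 on the HOXB13 side.

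Genes of the other HOX clusters moved in both directions. Of 29 genes of HOXA, HOXC and HOXD, 26 were tested, 16 were higher in ROBO1pos, 7 lower and 3 did not pass, and their median difference on the log2 scale was 0.54. Over all tested genes 41.6% were called higher and 40.4% lower. HOXC5 and HOXD9 were among those higher in ROBO1pos, at 2.69 (SE 0.17, edgeR adjusted p = 2.2e-09) and 1.70 (SE 0.11, edgeR adjusted p = 3.5e-09). HOXD11 was among those lower, at -1.74 (SE 0.11, edgeR adjusted p = 2.3e-09). By RefSeq positions HOXC5 shares its start with HOXC4 and HOXC6 on the same strand. Reads in shared stretches could be counted to any of these genes or to none. HOXA7, a paralogue of HOXB7 and the HOXA gene of the highest CPM, was at 46.0 ± 2.43 CPM in ROBO1pos and 53.8 ± 3.53 CPM in ROBO1neg (SD, n = 5 each). HOXC10, the HOXC gene of the highest CPM, was at 31.6 ± 1.35 CPM in ROBO1pos and 21.6 ± 1.26 CPM in ROBO1neg. Reads on HOXB genes were 40.2% ± 1.74 of those on all 39 HOX genes in ROBO1pos and 82.5% ± 1.44 in ROBO1neg (SD, n = 5 each).

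Partners of the HOX proteins moved in both directions. Of 9 TALE genes, 8 were tested, 4 were lower in ROBO1pos, 3 higher and PBX2 did not pass (edgeR adjusted p = 0.318), and their median difference on the log2 scale was -0.21. Among all tested genes 40.4% were called lower and 41.6% higher. MEIS2 was at 1.71 ± 0.314 CPM in ROBO1pos and 13.0 ± 1.504 CPM in ROBO1neg, MEIS3 at 14.9 ± 3.24 and 65.9 ± 8.31, and PBX3 at 6.13 ± 0.820 and 21.0 ± 1.39 (SD, n = 5 each). Their log2 fold changes were -2.93 (SE 0.13, edgeR adjusted p = 5.1e-11), -2.14 (SE 0.13, edgeR adjusted p = 1.5e-09) and -1.78 (SE 0.09, edgeR adjusted p = 3.2e-10). MEIS1, which cooperates with HOX proteins in leukaemia, went the other way, at 5.30 ± 0.363 CPM in ROBO1pos and 2.03 ± 0.223 CPM in ROBO1neg, which is 1.38 on the log2 scale (SE 0.11, edgeR adjusted p = 4.8e-08).

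CDX proteins are homeodomain factors of the gut that regulate HOX genes in the embryo. CDX2, the main family member of intestinal epithelium, was at 28.8 ± 7.14 CPM in ROBO1pos and 30.04 ± 7.43 CPM in ROBO1neg (SD, n = 5 each) and did not pass the test (log2 fold change -0.06, SE 0.18, edgeR adjusted p = 0.753), and its sign turned under upper quartile scaling and without ROBO1neg replicate 3 or 4 or ROBO1pos replicate 5. CDX1 was higher in ROBO1pos, at 0.744 ± 0.289 CPM against 0.0306 ± 0.0424 CPM in ROBO1neg (SD, n = 5 each), from 95 reads and 4 reads over the groups. CDX4 was at 0 in every library.

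More genes of retinoic acid signalling fell than rose in ROBO1pos. Of 20 genes 15 were tested, 10 were lower in ROBO1pos, 4 higher and RDH10 did not pass (edgeR adjusted p = 0.213), and their median difference on the log2 scale was -1.37. Over all tested genes 40.4% were called lower and 41.6% higher. CYP26A1, the enzyme that degrades retinoic acid and is itself induced by it, was at 0.307 ± 0.0607 CPM in ROBO1pos and 11.6 ± 3.30 CPM in ROBO1neg (SD, n = 5 each), which is -5.22 on the log2 scale (SE 0.24, edgeR adjusted p = 8.8e-11). RARA, a retinoic acid receptor, was at -1.59 (SE 0.06, edgeR adjusted p = 2.2e-11). The other genes of the list higher in ROBO1pos included CYP26B1, another enzyme that degrades retinoic acid, at 2.17 (SE 0.22, edgeR adjusted p = 3.9e-07), RARB, a receptor gene that retinoic acid induces, at 2.09 (SE 0.28, edgeR adjusted p = 7.5e-06), and ALDH1A2, a synthesis enzyme, at 3.79 (SE 0.40, edgeR adjusted p = 6.8e-07). ALDH1A2 averaged 1.69 CPM in ROBO1pos and 0.110 CPM in ROBO1neg. STRA6, the membrane transporter that takes up retinol, was higher in ROBO1pos, at 557 ± 61.2 CPM against 271 ± 9.24 CPM in ROBO1neg, which is 1.04 on the log2 scale (SE 0.07, edgeR adjusted p = 2.5e-09).

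Polycomb proteins keep HOX clusters silent and trithorax proteins keep them active. Of 28 Polycomb genes 26 were tested, 14 were lower in ROBO1pos, 8 higher and 4 did not pass, and their median difference on the log2 scale was -0.27. Calls over all tested genes were 40.4% lower and 41.6% higher. CBX2 was higher in ROBO1pos, at 149 ± 7.61 CPM against 62.9 ± 3.94 CPM in ROBO1neg (1.25 on the log2 scale, SE 0.05, edgeR adjusted p = 2.8e-11). Its paralogue CBX7 was lower, at 20.2 ± 1.66 CPM against 46.1 ± 5.42 CPM, as were PHC2 at -1.20 (SE 0.07) and PHC3 at -1.39 (SE 0.07). RING1 and PCGF2 were listed at 0 in every library, and whether that reflects their RNA or the counting was not tested.

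All 17 trithorax genes and H3K27 demethylases were tested. Of these, 7 were higher in ROBO1pos, 3 lower and 7 did not pass, and their log2 fold changes lay between -0.41 and 0.81. Over all tested genes 41.6% were called higher and 40.4% lower. KMT2B, a histone methyltransferase, was at 146 ± 6.18 CPM in ROBO1pos and 83.5 ± 2.85 CPM in ROBO1neg (0.81 on the log2 scale, SE 0.04, edgeR adjusted p = 2.6e-10). DPY30, a subunit of the same kind of complex, was at 0.39 (SE 0.05) and its partner WDR5 at -0.26 (SE 0.04). PSIP1, which tethers such a complex to chromatin, was at -0.41 (SE 0.04).

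Genes reported as HOXB9 targets in breast cancer cells moved in both directions. Of 10 genes 7 were tested, 4 were lower in ROBO1pos, 2 higher and EREG did not pass (edgeR adjusted p = 0.792), and their median difference on the log2 scale was -0.55. Among all tested genes 40.4% were called lower and 41.6% higher. TGFB2, a ligand of the TGF-beta family, was at 0.400 ± 0.249 CPM in ROBO1pos and 31.9 ± 6.76 CPM in ROBO1neg (SD, n = 5 each), which is -6.30 on the log2 scale (SE 0.25, edgeR adjusted p = 2.0e-11). NRG2, an ERBB ligand, was at -3.71 (SE 0.14, edgeR adjusted p = 9.8e-12), and TGFB1 at -0.55 (SE 0.08, edgeR adjusted p = 9.7e-06). AREG, another ERBB ligand, and VEGFA, an inducer of blood vessels, were the 2 genes higher in ROBO1pos. AREG was at 0.72 (edgeR adjusted p = 0.032), a call lost without ROBO1neg replicate 3, 4 or 5 or ROBO1pos replicate 4 or 5, with adjusted p up to 0.092. VEGFA was at 0.41 (SE 0.16, edgeR adjusted p = 0.030), a call lost without ROBO1neg replicate 1, 2 or 3 or ROBO1pos replicate 1, 4 or 5, with adjusted p up to 0.081. The ranges of the groups overlapped for both. Leaving out any single library other than ROBO1pos replicate 2 or 3 left 0 or 1 of these genes called higher. FGF2, ANGPTL2 and NRG1 had too few reads to be tested.

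**Figure D5:**
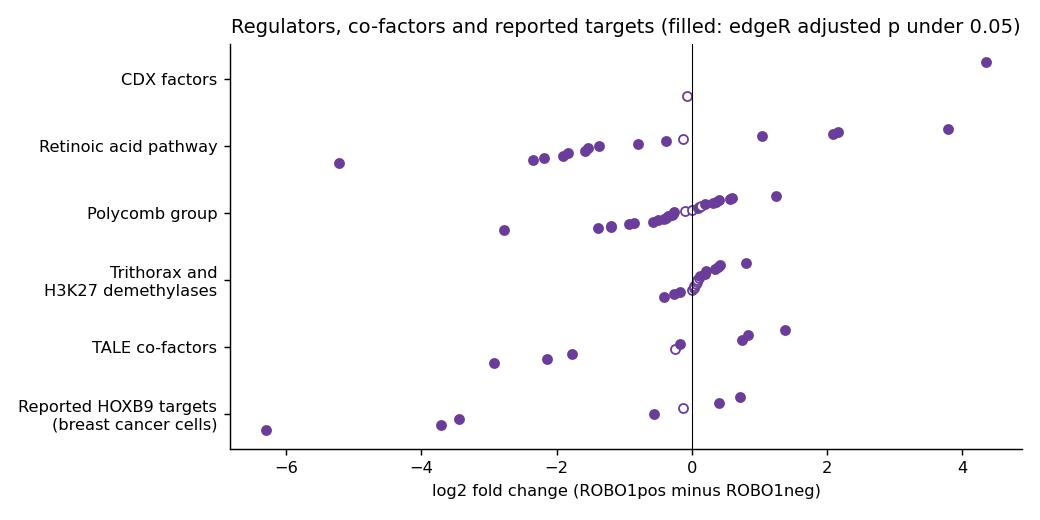
Log2 fold change, ROBO1pos minus ROBO1neg, of tested genes of regulators, partners and reported targets of HOX proteins, 1 point per gene, filled where edgeR's adjusted p is under 0.05. Retinoic acid genes reach from -5.22 (CYP26A1) to 3.79, and trithorax genes stay between -0.41 and 0.81.

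Among genes outside the cluster, those whose levels over the 10 libraries lay closest to HOXB3, the member of the highest mean CPM, were SPEG, COL4A3, CRIP1, SH3BP4 and PLD1. Likeness was the root mean square distance between log2 CPM centred on each gene's mean, and ran from 0.0999 for SPEG to 0.137 for PLD1. Within the cluster HOXB4 was nearest to HOXB3, at 0.185, followed by HOXB7 at 0.259 and HOXB8 at 0.303, and HOXB2 was the farthest member. By its construction the distance is small where the group difference is close in size to that of HOXB3.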

How the data were processed

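Per the labels' protocols, cells were frozen in TRIzol, and stranded libraries were made from polyadenylated RNA. Each library has 1 deposited file of counts per gene, not normalized. The submitters' processing notes name GRCh38, STAR 2.6.0c, SAMtools 1.9 and DESeq2 1.24.0. The sources used here do not give the counting tool, strand setting or annotation. Rows that name no gene (36.2% to 42.5% of reads listed) were left out.

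Counts were fitted with edgeR 4.0.16 in R 4.3.3 (filterByExpr, TMM, quasi-likelihood, group as the only term), with calls at p under 0.05 after Benjamini-Hochberg adjustment. The scripts were tested on simulated data. CPM use TMM-scaled totals. Positions are from RefSeq (GRCh38.p14) and lengths from GENCODE 29. No pair of libraries of a group was a duplicate: counts differed by 3.59 to 22.3 times the sampling variance. Library totals did not differ detectably (exact two-sided permutation test, p = 0.905).

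The members and lists were chosen with earlier results of these data known. Named genes were all members, locus transcripts with reads, the 4 nearest called flanking genes on each side, up to 4 called genes per list by smallest adjusted p, the highest paralogue per cluster and the 5 genes most like the highest member. Among all these, a few are not reported here. AREG, ALDH1A2, CDX2, COL1A2, COPZ2, CYP26B1, KRT8, KRT19, LRRC46, NGFR, PRAC1, RARB, SCRN2 and genes named as not passing or at 0 were added with their values in view. Alternatives were other scalings, filters, DESeq2 1.42.0, limma-voom (limma 3.58.1), a replicate block, each library left out, removal of the local median and, chosen after seeing the data, coding length.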

Additional observations from a re-analysis of the deposited data

Results flagged for a closer look

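Some libraries stood apart from the other 4 of their group by Dixon's criterion for 5 values, which chance meets in about 1 of 20 groups; 146 groups were examined and 14 met it. HOXB3 was the sole member, with 46.2 CPM in ROBO1pos replicate 1 and 38.0 CPM in the next library. In ROBO1pos replicate 5, EPCAM was at 720 CPM (next 675) and KRT18 at 2740 CPM (next 2290). In ROBO1neg replicate 2, CBX1 was at 222 CPM (next 207), CYP26A1 at 17.2 CPM (next 11.3) and NRG2 at 12.3 CPM (next 10.4). In ROBO1neg replicate 1, MEIS2 was at 15.7 CPM (next 12.7) and PSIP1 at 209 CPM (next 191). DPY30 was low in ROBO1neg replicate 5, at 41.7 CPM (next 47.7). ALDH1A2 was at 0.307 CPM in ROBO1neg replicate 4 (next 0.0868), LRRC46 at 1.83 CPM in ROBO1neg replicate 1 (next 1.47) and RARB at 1.39 CPM in ROBO1neg replicate 3 (next 0.765). COPZ2 was low in ROBO1pos replicate 1, at 0.542 CPM (next 0.889), and in ROBO1neg replicate 3, at 8.64 CPM (next 12.0).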

How the results depend on the processing

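Every HOXB log2 fold change stayed negative under other scalings, DESeq2, limma-voom, both filters, the replicate block and each library left out. Each stayed within 1 SE of its value in the fit reported, with HOXB2 between -5.55 and -5.26 and HOXB13 between -1.09 and -0.97. Removal of the median of the 40 nearest genes moved the members' median to -1.92 and the single values to -4.87 (HOXB2), -2.37 (HOXB3), -2.26 (HOXB4), -0.79 (HOXB5), -1.50 (HOXB6), -1.92 (HOXB7), -2.89 (HOXB8), -1.35 (HOXB9) and -0.49 (HOXB13). With the filter of 5 CPM in 5 libraries fewer genes were tested, and the counts of calls were 0 for CDX genes higher in ROBO1pos, 1 for locus transcripts lower, 1 for retinoic acid genes higher and 1 for reported HOXB9 targets higher. That last count, 2 in the fit reported, ran from 0 to 2 with each library left out. The log2 fold change of CDX2, which was not called, was -0.06 in the fit reported, 0.0021 under upper quartile scaling, and from -0.185 to 0.0488 with 1 library left out, positive without ROBO1neg replicate 3 or 4 or ROBO1pos replicate 5. Genes called lower and higher in ROBO1pos numbered 5976 to 6148 and 6087 to 6245 with 1 library left out. Replicate numbers marked no shared culture in the labels, which do not say whether replicates were paired. Same-numbered libraries deviated together with r from 0.062 to 0.169, against -0.134 to 0.0951 for different numbers. All 5 ROBO1pos libraries correlated best with their own number, as did 3 of the ROBO1neg ones. With the replicate block 6086 genes were called lower in ROBO1pos and 6226 higher, against 6036 and 6214 without it, and no named gene changed its call. Ranks per kilobase by coding length, chosen after seeing the data, changed for HOXB4, HOXB5, HOXB7 and HOXB9 in ROBO1neg.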
